A study of Homo sapiens with 4 samples.

Results

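The genes of the DNA replication machinery were followed in RNA-seq data from cells labelled NB4 that were either controls or treated with GNE-987. The 53 genes were chosen by name for their known roles, from marking the replication origin to supplying the nucleotides, with earlier results of these data known. All 53 were found among the 58735 genes of the deposited table by their Ensembl identifiers, and all 53 passed the filter on low values that left 16668 genes for testing. NB4 is an established line from human acute promyelocytic leukemia, and GNE-987 is the small molecule with which the study treated it. The control group was 2 libraries labelled as controls for GNE-987, and the GNE-987 group was 2 libraries from cells given 25 nM for 24 h. The labels name no genotype difference and no carrier for the controls. The study used DMSO controls in its viability and cell cycle assays, and whether the control cultures sequenced here received DMSO is not given in the sources used here. Nothing says that the libraries of a group came from separate cultures, so the P values measure the spread between these libraries, which may be technical. The comparison asked which replication genes changed their transcript level with GNE-987.

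DNA replication starts at origins that are bound by the origin recognition complex. CDC6 and CDT1 then load the ring-shaped MCM2-7 helicase, and the kinase CDC7 with its partner DBF4 turns the ring into an active helicase by letting CDC45 and the GINS complex join it. Polymerase alpha-primase lays down the primers, polymerases epsilon and delta copy the strands on the PCNA clamp that the RFC complex loads, and FEN1 and LIG1 finish the lagging strand. In leukemia cells, as in other dividing cells, many of these genes are transcribed most strongly around the entry into S phase under E2F factors. RNA was taken from whole cultures, so fewer replicating cells and less RNA per cell cannot be told apart.

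Values were deposited as FPKM, fragments per kilobase of exon scaled to the size of the library. Whole reads recovered from the steps of these values on genes came to 16721691 and 16528695 in the controls and to 10831752 and 11280575 with GNE-987. A single read was worth 2.75 and 2.61 times as much FPKM in the GNE-987 libraries as in control replicate 1, and the summed FPKM was 624137 and 612335 against 218486 and 227275. The deposited scaling therefore set the GNE-987 values higher than a scaling to total reads would, and going to total reads changed the log2 fold change of each gene by about -0.80. Mitochondrial genes took 17.9% and 17.4% of the reads with GNE-987 and 4.36% and 5.29% in the controls (95% Wilson intervals at most 0.0457 percentage points wide, counting error only). The defining granule markers of the labelled line were close to absent in the controls, where MPO was listed at 0.0246 and 0 FPKM and ELANE and CTSG at 0. The 6 granulocyte markers summed to 2.49 and 2.93 FPKM in the controls and to 27.03 and 26.05 with GNE-987. The 8 erythroid markers summed to 310.5 and 310.0 FPKM in the controls, led by GATA1 at 124 and 122, and to 375 and 325 with GNE-987, where GATA1 was at 15.1 and 12.5. The 6 lymphoid markers summed to 17.2 and 16.2 FPKM and to 44.2 and 43.6. The part of these marker and mitochondrial shifts in the results was not tested, and the cells are called by their label throughout.

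The replication genes did not move as a block. With the deposited scaling 22 of the 53 fell and 3 rose, and 28 passed in neither direction, where passing means an unadjusted P value under 0.05 in limma together with a fold change over 2 or under 0.5. The 22 are 41.5% of the genes, beside 24.9% of all 16668 tested genes and 31.7% of the 10996 tested protein-coding genes that passed as lower. The 3 are 5.66%, beside 33.6% of all tested genes and 2638 of the 10996 protein-coding genes that passed as higher. The median log2 fold change of the 53 genes was -0.66, against 0.17 over all tested genes and -0.29 over the protein-coding genes. Of the 53, 39 lay below 0 and 14 above it. At a Benjamini-Hochberg adjusted P under 0.05 in limma and any fold change, 34 genes were lower and 14 higher, 48 in all, and 77.6% of all tested genes passed that criterion. Values of the groups did not overlap for 51 of the 53 genes, with CDC6 and MCM4 as the exceptions, and this held for 89.1% of all tested genes.

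**Figure D1:**
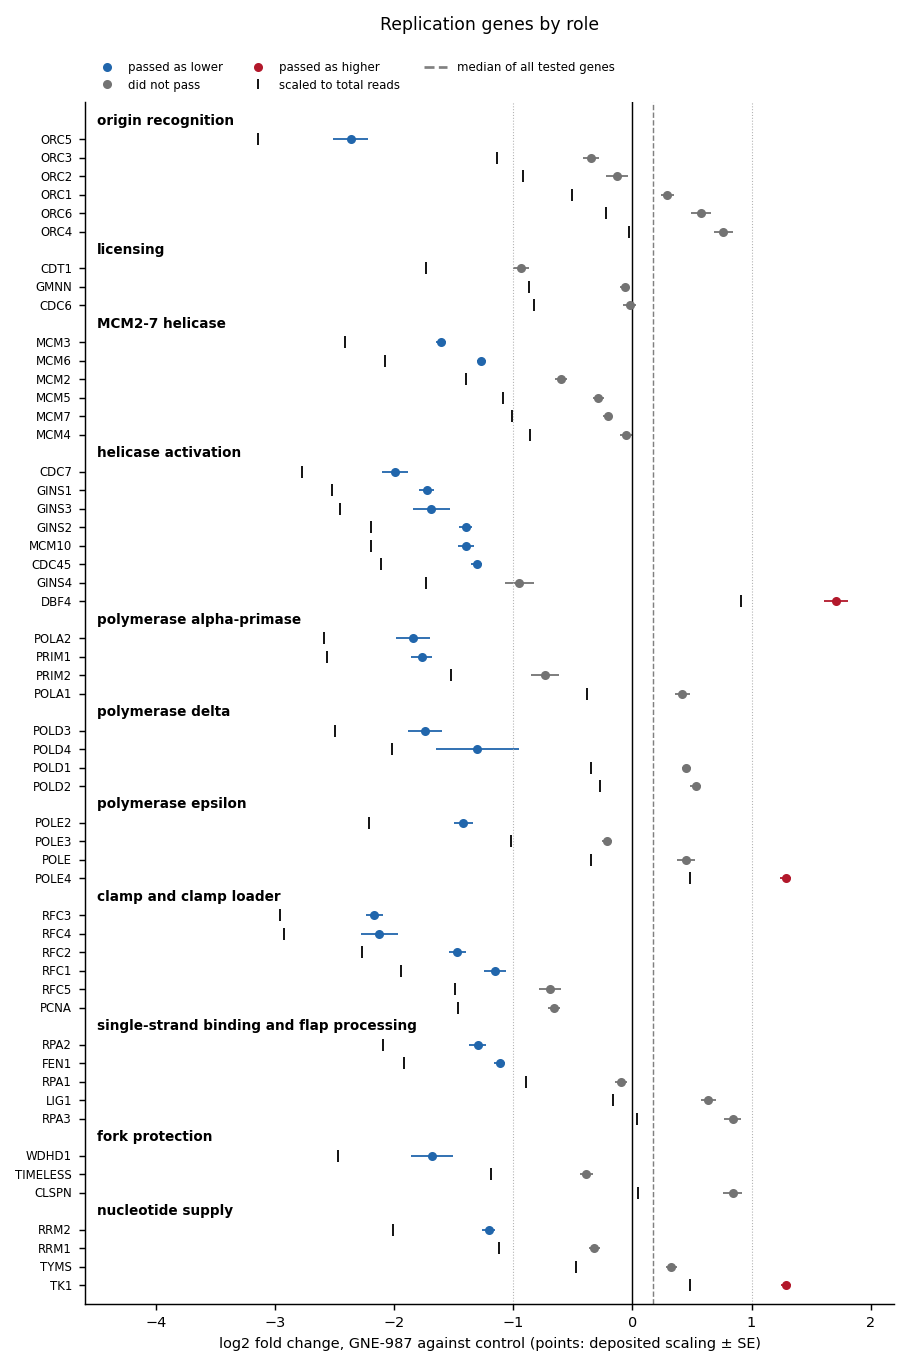
Log2 fold change with GNE-987 for each of the 53 genes, grouped by role, with points and bars for the estimate and its SE under the deposited scaling, ticks for the value after scaling to total reads, a dashed line at the median of all tested genes and dotted lines at a fold change of 2. The points run from -2.37 for ORC5 to 1.71 for DBF4, 22 are blue (lower), 3 are red (higher), and after scaling to total reads 48 ticks lie left of 0.

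The decreases held under each way of scaling the libraries that was tried, while the increases depended on it. No scaling tried, however, lifted the GNE-987 values as a whole above the deposited ones. Median-ratio scaling equals the deposited scaling, where the median log2 fold change over all tested genes was 0.17. That median became -0.24 with quantile scaling, -0.39 with non-mitochondrial reads, -0.59 with total reads and -1.59 with GAPDH. Shifts in that direction favour decreases, so these scalings are no strong check of them. The same 22 genes passed as lower with the deposited, median-ratio and quantile scaling, with total reads, with reads outside mitochondrial genes and with GAPDH, and no gene passed as higher in all 6. With total reads 34 genes passed as lower and 0 as higher, the median was -1.46 and 5 genes stayed above 0, where 40.3% of all tested genes and 51.4% of protein-coding genes passed as lower and 24.9% of all tested genes as higher. With reads outside mitochondrial genes, an alternative added after the data were seen, 28 passed as lower and 1 as higher, beside 36.5% of all tested genes and 46.6% of protein-coding genes as lower and 26.8% of all tested genes as higher. With quantile scaling 25 passed as lower and 2 as higher, beside 32.8% of all tested genes and 39.9% of protein-coding genes as lower and 25.4% of all tested genes as higher. GAPDH itself was at 398 and 432 FPKM in the controls and at 1501 and 1499 with GNE-987, so dividing by it lowered all genes. It left 50 of the 53 as lower, 0 as higher and none above 0, beside 58.4% of all tested genes and 72.8% of protein-coding genes as lower and 18.2% of all tested genes as higher.

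**Figure D2:**
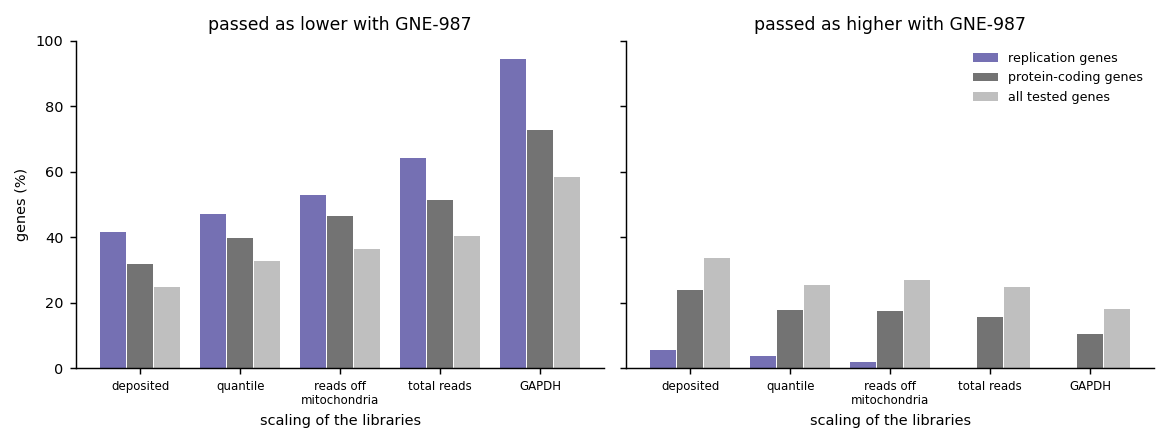
Percentage of genes that passed as lower (left panel) or higher (right panel) with GNE-987, for the 53 replication genes, all tested protein-coding genes and all tested genes, under 5 scalings of the libraries. For each scaling the bar of the replication genes is the tallest of the lower bars, with 41.5% for the deposited values, and the shortest of the higher bars, with 5.66%.

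To show what the start sites of these genes hold, stretches before the start are printed for genes with different changes. MCM3, MCM6 and CDC7 fell, and CDT1 and PCNA were lower by less than 2-fold. POLA1 was above the controls with the deposited scaling, and POLE4 rose with that scaling. The stretches were picked after the values were seen, and those of ORC5 and DBF4, the ends of the range, are not printed. They are RefSeq promoter sequence of build GRCh38.p14, 5′ to 3′ on the strand of the gene, and capitals mark letters of the E2F motif TTTCCCGC, TTTGGCGC, TTTGCCGC or TTTCGCGC on either strand.
MCM3: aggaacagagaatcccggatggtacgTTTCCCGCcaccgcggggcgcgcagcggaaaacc
MCM6: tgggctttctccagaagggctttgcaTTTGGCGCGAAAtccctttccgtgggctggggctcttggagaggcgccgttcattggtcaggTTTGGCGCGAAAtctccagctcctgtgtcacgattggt
CDC7: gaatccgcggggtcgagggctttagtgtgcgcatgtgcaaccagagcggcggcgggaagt
CDT1: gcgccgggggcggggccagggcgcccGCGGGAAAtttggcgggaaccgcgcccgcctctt
PCNA: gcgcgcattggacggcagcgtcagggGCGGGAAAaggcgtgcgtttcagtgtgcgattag
POLA1: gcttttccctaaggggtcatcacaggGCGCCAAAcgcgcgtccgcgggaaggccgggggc
POLE4: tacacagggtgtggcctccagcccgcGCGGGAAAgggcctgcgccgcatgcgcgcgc

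The stretches lie at chr6:52284883-52284942 on the minus strand for MCM3, chr2:135876496-135876621 on the minus strand for MCM6, chr1:91500791-91500850 on the plus strand for CDC7, chr16:88803728-88803787 on the plus strand for CDT1, chr20:5126648-5126707 on the minus strand for PCNA, chrX:24693755-24693814 on the plus strand for POLA1 and chr2:74958586-74958642 on the plus strand for POLE4. In MCM6 the motif stands on each strand in turn with overlapping letters, at a pair of places. The printed CDC7 stretch before this start holds none of these letters, although an entry for another start of the gene does. RefSeq entries of 300 bases, 250 before to 50 after a start, were matched for 47 of the 53 genes, with 62 starts. An E2F motif stood in 22 of the 62, or 35.5%, against 3.31% of all 35116 entries and 5.08% of the entries of tested protein-coding genes. The printed stretches, all with the motif but that of CDC7, thus show it more often than the 62 starts do. The change was then set beside the letters as a description, with no test. Median log2 fold changes were -0.63 for the 22 genes with the motif, of which 9 fell, and -0.69 for the 25 without it, of which 11 fell. The close spelling TTTGGCGG, which stands in the printed CDT1 stretch, was not searched. Genes counted as without the motif may therefore hold that spelling. The CCAAT box stood in 54.8% of the 62 entries against 34.6% of all, CACGTG in 12.9% against 7.26%, and TTTGAA in 4.84% against 15.2%, each counted on both strands. The 28 genes with CCAAT had a median change of -0.33 on the log2 scale and the 19 without it -1.11, with 10 that fell in each. It was -0.21 for the 8 genes with CACGTG, of which 1 fell, and -0.93 for the 39 without, of which 19 fell. It was -0.21 for the 3 genes with TTTGAA, of which 0 fell, and -0.71 for the 44 without, of which 20 fell. A match is a description of letters and no measure of binding.

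Among the 6 subunits of the origin recognition complex, which stays bound to origins and marks them for loading, 1 fell and none rose. With the deposited scaling, counts in this and the following roles stand beside 31.7% of tested protein-coding genes that passed as lower. As higher passed 33.6% of all tested genes. ORC5 (chr7:104126341-104208047, minus strand, GENCODE release 44 on hg38) was at 10.1 and 9.99 FPKM in the controls and at 2.12 and 1.64 with GNE-987, with 66 and 54 reads behind the low values. Its log2 fold change of -2.37 ± 0.15 (SE, adjusted P = 0.000546 in limma) was the largest decrease of all 53 genes, and both GNE-987 libraries lay far below both controls. ORC4, a neighbour of ORC5 in the ring, went from 4.76 and 5.23 FPKM to 8.61 and 8.46, a log2 fold change of 0.76 ± 0.08 that did not reach 2-fold and was -0.03 with total reads. ORC1, the subunit with the main ATPase site, went from 29.2 and 28.9 to 36.8 and 34.5 FPKM (0.29 ± 0.05), and its value was -0.51 with total reads. ORC6, which joins the other subunits loosely, went from 10.6 and 11.4 to 15.5 and 17.4 FPKM (0.58 ± 0.09), and was at -0.22 with total reads. The groups of ORC1, ORC4 and ORC6 were apart, as were those of 89.1% of all tested genes. Which side of 0 these 3 genes lie on depended on the scaling. ORC3 went from 8.52 and 8.95 to 6.71 and 7.003 FPKM (-0.34 ± 0.07) and passed as lower with total reads (-1.14) and GAPDH (-2.17), but not with non-mitochondrial reads. ORC2 had a log2 fold change of -0.13 ± 0.09 (adjusted P = 0.265 in limma).

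The 3 licensing genes stayed within 2-fold with the deposited scaling, and all 3 passed as lower with GAPDH. CDT1, which brings the MCM ring to the origin, went from 73.5 and 66.1 FPKM to 36.7 and 36.2, and its log2 fold change of -0.93 ± 0.07 (adjusted P = 0.000759 in limma) stopped just short of 2-fold. It passed with total reads (-1.74), non-mitochondrial reads (-1.53), quantile scaling (-1.54) and GAPDH (-2.78), and also without control replicate 2 (-1.01). CDC6, the ATPase that works with CDT1, was at 19.9 and 19.1 FPKM in the controls and at 19.5 and 18.9 with GNE-987. Its groups overlapped, and the difference of -0.02 ± 0.05 was not detectable against their spread. GMNN, which encodes geminin, the inhibitor of CDT1, had a log2 fold change of -0.07 ± 0.04 (adjusted P = 0.195 in limma).

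All 6 subunits of the MCM2-7 helicase were below 0, and 2 of them, or 33.3%, fell. That is near the 31.7% of tested protein-coding genes that passed as lower. The median of those genes was itself below 0, at -0.29. MCM3 went from 91.2 and 94.1 FPKM to 30.5 and 30.2, a log2 fold change of -1.61 ± 0.04 (adjusted P = 0.000143 in limma), so that 32.7% of the control level was left. MCM6 fell by 1.27 on the log2 scale, with an SE of 0.04. The ring holds its 6 subunits in equal number, yet the other 4 genes did not reach 2-fold with the deposited scaling. MCM2 went from 32.4 and 33.6 to 21.2 and 22.3 FPKM (-0.60 ± 0.05), MCM5 from 26.5 and 25.7 to 21.3 and 21.5 (-0.29 ± 0.05), and MCM7 from 137.5 and 137.3 to 119.6 and 118.2 (-0.21 ± 0.04). With total reads these 3 passed as lower, at -1.40, -1.09 and -1.01, and MCM7 also with quantile scaling (-1.29). MCM4 was at 64.0 and 68.7 FPKM in the controls and at 64.2 and 63.5 with GNE-987, its groups overlapped, and its log2 fold change was -0.06 ± 0.05, or -0.86 with total reads.

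Helicase activation was the group with the most decreases, 6 of 8 genes, and it also held the largest increase. CDC7, the kinase that fires the loaded helicase (chr1:91500851-91525764, plus strand), fell from 8.91 and 10.4 FPKM to 2.32 and 2.36, on 69 and 74 reads. Its log2 fold change was -1.996 ± 0.11 (adjusted P = 0.000408 in limma). DBF4, the subunit that switches CDC7 on (chr7:87876216-87909553, plus strand), rose with the deposited scaling from 12.4 and 13.0 FPKM to 45.5 and 38.2, on 1308 and 1316 reads in the controls and 1742 and 1547 with GNE-987. Its log2 fold change of 1.71 ± 0.10 (adjusted P = 0.000515 in limma) was 0.91 with total reads, under 2-fold, and -0.14 with GAPDH. DBF4 still passed as higher with non-mitochondrial reads (1.12) and with quantile scaling (1.46). The kinase and its activator thus lay on opposite sides of 0 with the deposited scaling. Groups did not overlap in either gene, as in 89.1% of all tested genes. GINS1, GINS2 and GINS3, subunits of the complex that joins CDC45 and MCM2-7 in the active helicase, fell by 1.73, 1.40 and 1.69 on the log2 scale. GINS4, the last subunit, went from 6.32 and 7.52 FPKM to 3.67 and 3.37 (-0.95 ± 0.12), and passed with total reads (-1.74) or without GNE-987 replicate 1 (-1.01) or control replicate 1 (-1.07). CDC45 fell by 1.31 and MCM10, which is needed for the helicase to start unwinding, fell by 1.40, with SEs of 0.05 and 0.06.

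The 4 genes of polymerase alpha-primase, the enzyme that makes the RNA-DNA primers, were split. POLA2, the regulatory subunit, fell from 3.27 and 3.43 FPKM to 0.940 and 0.791, on 45 and 40 reads, with a log2 fold change of -1.84 ± 0.14 (adjusted P = 0.000917 in limma). PRIM1, the catalytic primase subunit, fell by 1.77 on the log2 scale. PRIM2, the other primase subunit, went from 6.75 and 7.60 to 3.95 and 4.61 FPKM (-0.73 ± 0.12) and passed only with total reads (-1.52), non-mitochondrial reads (-1.32) or GAPDH (-2.55). POLA1, the catalytic polymerase subunit, was at 8.72 and 8.71 FPKM in the controls and at 12.1 and 11.3 with GNE-987. Its groups were apart, as were those of 89.1% of all tested genes, but the log2 fold change of 0.42 ± 0.06 became -0.38 with total reads.

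Polymerase delta, which copies the lagging strand, had 2 genes that fell and 2 that lay above the controls with the deposited scaling. POLD3, an accessory subunit, fell from 3.78 and 3.92 FPKM to 0.977 and 1.19, on 45 and 58 reads (-1.74 ± 0.14, adjusted P = 0.00105 in limma). POLD4, the smallest subunit, went from 1.60 and 1.59 to 0.824 and 0.409 FPKM and rested on only 21 and 11 reads with GNE-987. Its log2 fold change of -1.30 ± 0.35 (adjusted P = 0.0299 in limma) passed, but no longer did so with a pseudocount of 1 (-0.69), in the test against a fold change of 2, or without control replicate 1 (-1.30), control replicate 2 (-1.31) or GNE-987 replicate 2 (-0.87). POLD1, the catalytic subunit, went from 33.0 and 33.1 to 44.8 and 45.7 FPKM (0.45 ± 0.04), and was at -0.35 with total reads. POLD2, which ties POLD1 to the accessory subunits, went from 57.6 and 54.6 to 82.3 and 79.7 FPKM (0.53 ± 0.05), and was at -0.27. Neither reached 2-fold, and their side of 0 depended on the scaling.

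Polymerase epsilon, the leading-strand enzyme, had 1 subunit that fell and 1 that rose. POLE2, the subunit that docks on the helicase, fell from 9.83 and 9.76 FPKM to 3.44 and 3.76 (-1.42 ± 0.08, adjusted P = 0.000436 in limma). POLE4, a small histone-fold subunit (chr2:74958643-74970128, plus strand), rose with the deposited scaling from 14.98 and 14.63 to 35.7 and 36.8 FPKM. That is a log2 fold change of 1.29 ± 0.05 (adjusted P = 0.000217 in limma), which was 0.49 with total reads and -0.56 with GAPDH, neither a pass as higher. POLE4 passed as higher with quantile scaling (1.05), but not with non-mitochondrial reads (0.69). POLE3, the histone-fold partner of POLE4, went from 51.3 and 50.8 to 44.3 and 43.8 FPKM (-0.21 ± 0.04) and passed as lower with total reads (-1.02). POLE, the catalytic subunit, went from 15.2 and 16.9 to 21.4 and 22.5 FPKM (0.45 ± 0.08), and was at -0.35 with total reads. The groups of all 4 subunits were apart, as were those of 89.1% of all tested genes.

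The clamp and its loader were below 0 in all 6 genes, and 4 of the 5 loader subunits fell. The median of the tested protein-coding genes was also below 0, at -0.29, and 31.7% of them passed as lower. RFC3 went from 16.96 and 16.67 FPKM to 3.83 and 3.51, with a log2 fold change of -2.17 ± 0.07 (adjusted P = 0.000199 in limma). RFC4 fell by 2.13, RFC2 fell by 1.47 and RFC1, the large subunit, fell by 1.15 on the log2 scale. Of these only RFC1 did not pass the test against a fold change of 2. RFC5 went from 16.8 and 17.1 to 9.72 and 11.2 FPKM (-0.69 ± 0.09) and passed with total reads (-1.49). PCNA, the sliding clamp itself and the most highly expressed gene of the 53 in the controls, went from 234 and 226 to 149.7 and 142 FPKM. Its log2 fold change of -0.66 ± 0.05 (adjusted P = 0.000782 in limma) was clear of the replicate spread but under 2-fold with the deposited scaling. It passed as lower at -1.46 with total reads, -1.25 with non-mitochondrial reads, -2.04 with quantile scaling and -2.51 with GAPDH.

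Single-strand binding and flap processing took 2 decreases in 5 genes. RPA2, the middle subunit of the RPA trimer that coats single-stranded DNA, fell from 27.2 and 27.3 FPKM to 11.6 and 10.4 (-1.30 ± 0.07, adjusted P = 0.000433 in limma). RPA3, the small subunit, went from 13.7 and 12.8 to 24.8 and 23.0 FPKM (0.84 ± 0.07), and lay at 0.04 with total reads and at -1.002 with GAPDH. RPA1, the large subunit, differed by -0.09 ± 0.05 (adjusted P = 0.161 in limma). The trimer holds its subunits in equal number, and its 3 genes lay at 3 different places of the range. FEN1, the nuclease that trims the 5′ flaps of lagging-strand pieces, fell by 1.11 on the log2 scale. LIG1, the ligase that then joins them, went from 15.3 and 16.0 to 23.5 and 25.2 FPKM (0.64 ± 0.06), and lay at -0.16 with total reads.

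Of the 3 fork protection genes WDHD1, which tethers polymerase alpha to the helicase, fell from 9.58 and 9.64 FPKM to 3.43 and 2.48 (-1.69 ± 0.18, adjusted P = 0.00194 in limma). CLSPN, which encodes claspin, the mediator of the checkpoint at the fork, went from 16.6 and 18.9 to 31.6 and 32.1 FPKM. Its log2 fold change of 0.84 ± 0.08 did not reach 2-fold, and it was 0.04 with total reads and -1.003 with GAPDH. TIMELESS, a claspin partner in the fork, had a log2 fold change of -0.39 ± 0.06, from 29.2 and 31.1 to 22.7 and 23.3 FPKM, and passed as lower with total reads (-1.19).

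The 4 genes of nucleotide supply ran in both directions. RRM2, the small subunit of ribonucleotide reductase that makes all deoxynucleotides, fell from 23.3 and 22.2 FPKM to 9.999 and 9.578 (-1.21 ± 0.06, adjusted P = 0.000338 in limma). RRM1, the large subunit, went from 29.7 and 28.6 to 23.4 and 23.2 FPKM (-0.32 ± 0.05), which passed only with total reads (-1.12) and GAPDH (-2.17). TK1, the thymidine kinase of the salvage route (chr17:78174091-78187233, minus strand), rose with the deposited scaling from 88.8 and 86.0 to 211 and 217 FPKM (1.29 ± 0.04, adjusted P = 0.000186 in limma), but was at 0.49 with total reads, 0.23 with quantile scaling and -0.56 with GAPDH. TK1 was the most highly expressed of the 53 genes with GNE-987, a place that PCNA held in the controls. TYMS, the thymidylate synthase of the de novo route, went from 32.0 and 33.6 to 40.7 and 41.7 FPKM (0.33 ± 0.05), and was at -0.47 with total reads.

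**Figure D3:**
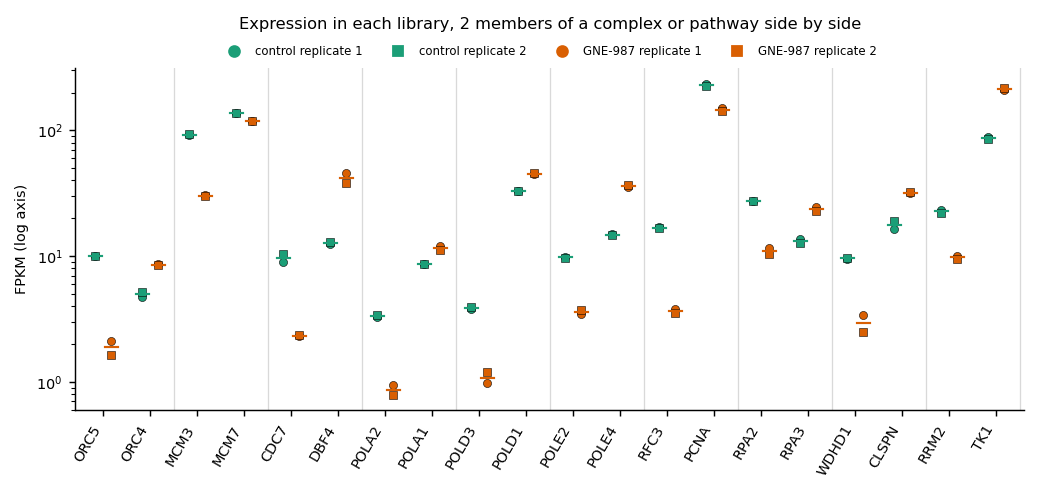
FPKM on a log axis in each of the 4 libraries for 20 replication genes, set in pairs from the same complex or pathway, with circles and squares for replicates 1 and 2 and short lines for the group means. In each pair the left gene lies lower with GNE-987, from MCM3 at about 30 FPKM to POLA2 under 1, and the libraries of a group lie close together compared with the distance between groups for the genes that fell.

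The ratio of a pair of genes within the same library does not depend on any single factor per library, so the deposited, total-read, non-mitochondrial and GAPDH scalings give the same ratios. Quantile scaling, which does alter ratios, kept the direction of 19 of the 20 pairs and turned CDC45 over GINS1 from 0.44 to -0.16 on the log2 scale. The pairs were chosen after the values were seen and carry no test. The level of DBF4 over that of CDC7, both in FPKM, was 1.39 and 1.25 in the controls and 19.6 and 16.2 with GNE-987, a 13.5-fold shift. ORC4 over ORC5 went from 0.472 and 0.523 to 4.06 and 5.15, a 9.21-fold shift. Both ratios began near parity or below it and ended far above, with libraries of a group close to each other. Among the polymerases the ratio of POLE4 to POLE2 went from 1.524 and 1.499 to 10.4 and 9.80. That of POLA1 to POLA2 went from 2.67 and 2.54 to 12.8 and 14.3, and that of POLD1 to POLD3 from 8.74 and 8.43 to 45.9 and 38.3. The shifts of these 3 pairs were 6.67-fold, 5.19-fold and 4.88-fold. POLA1 over PRIM1 shifted 4.65-fold and POLE, the catalytic subunit of its enzyme, shifted 3.72-fold over POLE2.

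Further pairs shifted as well. RPA3 over RPA2 went from 0.505 and 0.469 to 2.135 and 2.1999, CLSPN over WDHD1 from 1.73 and 1.96 to 9.22 and 12.9, and TK1 over RRM2 from 3.81 and 3.87 to 21.1 and 22.6, a log2 change of 2.51 that was 1.55 with quantile scaling. PCNA over RFC4 changed by 1.48, but by 0.31 with quantile scaling. LIG1 over FEN1 shifted 3.38-fold and MCM4 over MCM3 shifted 2.94-fold, from 0.702 and 0.730 to 2.11 and 2.10. Within the helicase ring MCM7 over MCM3 went likewise from 1.51 and 1.46 to 3.92 and 3.91, so that MCM3 lost ground to both. CDT1 over its inhibitor GMNN ran the other way, from 1.668 and 1.503 to 0.866 in both GNE-987 libraries. CDC45 over GINS1, which fell together, differed least of the 20 pairs, from 5.05 and 4.98 to 7.14 and 6.47.

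**Figure D4:**
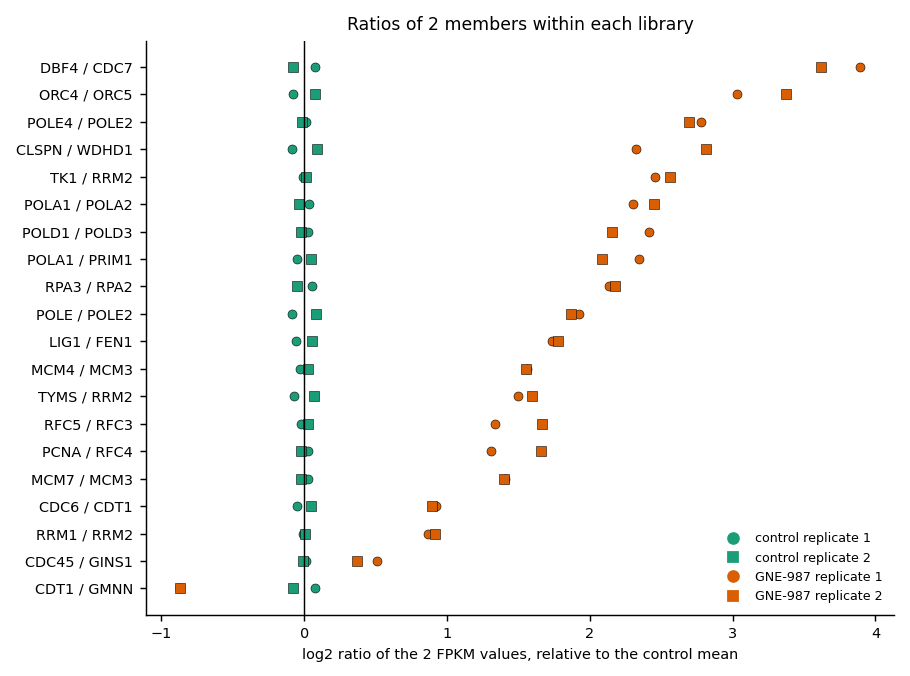
Log2 ratio of the FPKM values of a pair of replication genes in each library, set to the mean of the control libraries, for 20 pairs chosen after the values were seen, with circles and squares for replicates 1 and 2. The GNE-987 points lie apart from the control points for each pair, farthest for DBF4 over CDC7 (a mean log2 shift of 3.76) and to the left for CDT1 over GMNN only (-0.87).

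Some of these genes overlap, or lie beside, other genes. Of the 53 genes, 32 overlap an annotated gene, 24 of them a gene on the opposite strand. Overlaps were taken from whole gene spans, introns included, and whether exons are shared was not checked. The counting is not stated to use strand, so reads from any shared exons cannot be told apart. The 32 are CLSPN, DBF4, FEN1, GINS1, GINS2, GINS3, GINS4, LIG1, MCM2, MCM7, ORC2, ORC4, PCNA, POLA1, POLA2, POLD1, POLD3, POLD4, POLE2, POLE3, PRIM1, PRIM2, RFC1, RFC3, RFC4, RFC5, RPA1, RPA3, RRM1, RRM2, TYMS and WDHD1. PRIM1 shares 1191 bases with NACA on the same strand, and NACA was 1.24 higher on the log2 scale with the deposited scaling while PRIM1 fell. POLD4 shares 6201 bases with RAD9A on the opposite strand, which differed by -1.31, close to POLD4 itself. DBF4 shares 145 bases with SLC25A40, at -1.15, and ORC4 shares 431 bases with ACVR2A, which went from 0.5004 and 0.6677 to 7.35 and 8.02 FPKM. POLA1 contains the pseudogene EEF1B2P3, at 1.93, and TYMS shares 3261 bases with ENOSF1, at 0.64. Whether these overlaps added reads to ORC4, POLA1 or TYMS was not tested. For 12 of the 53 genes a pseudogene named after them is in the table, 22 pseudogenes in all, and reads could be split with them: ORC1, DBF4, POLD2, POLE4, PCNA, RFC3, RFC5, RPA2, RPA3, FEN1, RRM2 and TYMS. RRM2P3, the only pseudogene of these above the filter, was at 1.98 and 2.02 FPKM in the controls and at 0 and 0.292 with GNE-987.

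For 6 of the 53 genes a neighbour expressed in the controls starts close by on the opposite strand, and 3 of these pairs, chosen after their values were seen, are given side by side with no test of the difference. CDC45 fell by 1.31 on the log2 scale while UFD1, which starts 255 bases away on the opposite strand, was 1.19 higher with the deposited scaling. MCM4 (-0.06) lies 7 bases from PRKDC, which fell from 45.9 and 58.8 FPKM to 24.6 and 26.3 (-1.03). FEN1 fell by 1.11 beside TMEM258 at 0.64 with the deposited scaling. Gene length and control level described little of the spread among the 53 genes. The length is the one at which whole reads were recovered, which is not always the annotated exon length. The 53 genes are not independent replicates and share the same 4 libraries. Spearman's rho across them was 0.16 between this length and log2 fold change and 0.16 between control level and log2 fold change. Over the tested protein-coding genes the values were -0.19 and -0.29.

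Genes that work beside the 53 were read from the same tests. Among 25 tested genes of other replication factors 9 passed as lower and 2 as higher, with a median log2 fold change of -0.27, or -1.07 with total reads. TOPBP1, which helps CDC45 and GINS to load, fell from 15.1 and 16.1 to 2.46 and 3.37 FPKM (-2.40 ± 0.17). FBXO5, which encodes EMI1, an inhibitor of the ligase that destroys geminin, rose from 11.7 and 11.7 to 138 and 129 FPKM (3.50 ± 0.05), and was at 2.70 with total reads and 1.65 with GAPDH. In the 9 genes of replication-coupled chromatin assembly 3 were lower and 1 higher (median -0.44). CHAF1A, the large subunit of the CAF-1 histone chaperone, fell by 1.62, whereas ASF1B, the chaperone that hands histones to CAF-1, rose by 2.53 on the log2 scale, or 1.72 with total reads and 0.68 with GAPDH. These are the lowest and the highest of the 9 genes.

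In the other 9 genes of nucleotide supply 2 passed as lower (median -0.58), with the largest decrease in DCK, a salvage kinase, at -1.95. In the 30 mitosis genes 8 passed as lower and 5 as higher (median -0.16). With total reads 15 of the 30 passed as lower and 0 as higher. In that scaling 51.4% of protein-coding genes passed as lower and 24.9% of all tested genes as higher. The list ran from the checkpoint kinase BUB1B at -2.43 to the kinesin KIF23 at 1.72. KIF23 was at 0.92 with total reads and at -0.12 with GAPDH. Of the 10 E2F and DP genes, which encode the factors that bind the motif above, 4 passed as lower and none as higher (median -0.74). E2F4 fell from 44.3 and 42.1 FPKM to 6.44 and 5.57 (-2.83 ± 0.09). E2F1 went from 16.7 and 14.7 to 28.4 and 28.1 FPKM (0.85 ± 0.08), and lay at 0.05 with total reads and at -0.996 with GAPDH. The shares that passed as lower in these lists, from 2 of 9 to 4 of 10, stand beside the 31.7% of all tested protein-coding genes given above. Their counts as higher stand beside 33.6% of all tested genes and 2638 of the 10996 protein-coding genes.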

How the data were processed

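Total RNA of cells labelled NB4 was sequenced in 2 control and 2 GNE-987 libraries. After filtering, reads were mapped with HISAT2 2.0.5, named with build hg38 in the submitters' processing notes, and the authors deposited an FPKM value for every gene in every library. The counting program, its strand setting and the annotation are not given in the sources used here. Groups and replicate numbers came from the labels, dose and time from the study's text. The 53 genes, the roles and the other gene lists were chosen with earlier results of these data known.

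Gene values were taken as log2(FPKM + 0.1), those averaging 0.5 FPKM or more were kept, and limma 3.58.1 in R 4.3.3 (empirical Bayes with trend, no block, two-sided) was fitted to 16668 genes. A fold change is thus on the log2(FPKM + 0.1) scale, which understates changes of low genes. Following the thresholds of the study, a gene passed when its unadjusted P was under 0.05 and its level changed by more than 2-fold either way. P values were also adjusted by Benjamini and Hochberg's method over all tested genes. Exact permutation of 2 against 2 libraries cannot go below P = 0.333. Reads were recovered as whole multiples of the smallest FPKM step with a tolerance of 0.001. At GENCODE release 44 exon lengths 50.9% of the 32895 genes above 0 came out whole, and the rest at another whole length, so depths are estimates. The deposited scaling equals median-ratio size factors of these reads. The scripts were tested on simulated data.

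Every gene is given by role. Values of each library are given for the largest decrease and the largest increase or smallest decrease of a role, for genes that passed as higher and for genes whose sign or call differs between the deposited and the total-read scaling. POLD4, the overlapping and neighbouring genes and the printed promoters were chosen after their values were seen. Other lists name at most their extremes, and 1 of these is not reported here.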

Additional observations from a re-analysis of the deposited data

How the results depend on the processing

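Scaling decided most differences. All genes passing as lower numbered 4148, against 6723 with total reads and 9738 with GAPDH. All genes passing as higher numbered 5602, against 3031 with GAPDH and 8757 without the filter, which tests more genes. Of the 53 replication genes 22 passed as lower, 34 with total reads and 50 with GAPDH, and 3 passed as higher, 0 with total reads, 0 with GAPDH and 1 with non-mitochondrial reads. Their median of -0.66 became -2.51 with GAPDH, -1.46 with total reads, -1.25 with non-mitochondrial reads and -0.90 with quantile scaling.

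Signs turned with GAPDH for ORC1 (-1.56), ORC4 (-1.06), ORC6 (-1.26), DBF4 (-0.14), POLA1 (-1.42), POLD1 (-1.40), POLD2 (-1.32), POLE (-1.40), POLE4 (-0.56), RPA3 (-1.002), LIG1 (-1.21), CLSPN (-1.003), TYMS (-1.52) and TK1 (-0.56). With total reads they turned for ORC1 (-0.51), ORC4 (-0.030), ORC6 (-0.22), POLA1 (-0.38), POLD1 (-0.35), POLD2 (-0.27), POLE (-0.35), LIG1 (-0.16) and TYMS (-0.47). With non-mitochondrial reads, chosen after seeing the data, they turned for ORC1 (-0.30), ORC6 (-0.014), POLA1 (-0.17), POLD1 (-0.14), POLD2 (-0.065), POLE (-0.14) and TYMS (-0.27), and with quantile scaling for ORC1 (-0.10), POLD2 (-0.18) and TYMS (-0.10). When a library was left out, the log2 fold change of CDC6 ran from -0.0537 without control replicate 2 to 0.0042 without control replicate 1.

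Leaving out each library in turn gave between 21 and 23 lower and 3 higher genes of the 53, a median between -0.65 and -0.59, and between 3714 and 4101 lower and 4978 and 5374 higher genes of all, the lone library being assumed to vary like the other group. The replicate numbers share only a number (correlation 0.00537 between same-numbered libraries), and the fit with a replicate block gave 22 lower and 3 higher of the 53, 4186 lower and 5667 higher of all, and changed no call among the 53. limma-voom on the recovered reads gave 4255 lower and 5918 higher genes and changed no call among the 53. Low reads limit POLD4, POLA2, POLD3, GINS3 and ORC5 most.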
